A study of Mus musculus with 16 samples.

Results

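Chrna4, Moxd1, Rad51b and Myo15 are protein-coding genes with near on-off levels in mouse liver, and make up 4 of the 25719 genes in the deposited table. They were picked by name because their levels over the 4 groups of the study looked like a switch set by the diet, so the levels themselves, in every group, chose them. Those levels are therefore given as a description, with no test. Of the 4, 3 switched with the diet in at least 1 genotype. Myo15 went against the name of a diet switch, since it was at the floor in 13 of 16 mice and its high values came from 2 mice of 1 group.

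RNA of whole liver was sequenced from 16 mice in 4 groups. WT mice of strain C57BL6J received normal chow (NCD, n = 4, mice numbered 1, 2, 3 and 5) or the steatosis-steatohepatitis diet (SSD, n = 5). Klrk1-/- mice, which lack the activating immune receptor NKG2D, received NCD (n = 4) or SSD (n = 3). SSD is rich in animal fat, fructose and cholesterol and is used to model fatty liver disease. The mice were young adult males, taken after a few weeks of feeding, and separate samples are separate mice. The comparisons ask what the diet changed in each genotype and what the lack of NKG2D changed on each diet.

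The 4 genes have no known common role. Chrna4 encodes the alpha-4 subunit of the nicotinic acetylcholine receptor, a ligand-gated ion channel best known from brain neurons, where alpha-4 pairs with the beta-2 subunit. Moxd1 encodes a copper-dependent monooxygenase of the endoplasmic reticulum, a relative of dopamine beta-hydroxylase whose substrate is not known. Rad51b encodes a subunit of a protein complex that acts in homologous recombination, the repair of broken DNA from an intact copy. Myo15 (also called Myo15a) encodes an unconventional myosin that carries cargo to the tips of stereocilia in the hair cells of the inner ear.

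On the GRCm39 build, Chrna4 (ENSMUSG00000027577) lies on the minus strand of chromosome 2 from 180660173 to 180685339. Moxd1 (ENSMUSG00000020000) is on the plus strand of chromosome 10 from 24099415 to 24178688. Rad51b (ENSMUSG00000059060) spans 517.4 kb of the plus strand of chromosome 12, from 79344056 to 79861464. Myo15 (ENSMUSG00000042678) is on the plus strand of chromosome 11 from 60360165 to 60419195. The 250 bases before a RefSeq start site of each gene are printed to show whether the genes share letters where the polymerase starts. Chrna4 and Rad51b mirrored each other over the diets, though both were picked for their levels over the diets. The RefSeq promoter table, built on GRCm38.p6, held all 4 symbols, and its sequences were placed on GRCm39 by exact match: chr2:180680971-180681220 (minus strand), chr10:24099165-24099414, chr12:79343806-79344055 and chr11:60359915-60360164 (plus strand). Capitals mark GGGCGG, the core read by SP1, and CCAAT, the core read by NF-Y, on either strand:
Chrna4: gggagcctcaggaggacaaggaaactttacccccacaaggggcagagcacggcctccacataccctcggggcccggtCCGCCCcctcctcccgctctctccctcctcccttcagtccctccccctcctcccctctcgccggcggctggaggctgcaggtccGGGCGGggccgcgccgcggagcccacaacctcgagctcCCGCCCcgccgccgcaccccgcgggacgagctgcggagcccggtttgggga
Moxd1: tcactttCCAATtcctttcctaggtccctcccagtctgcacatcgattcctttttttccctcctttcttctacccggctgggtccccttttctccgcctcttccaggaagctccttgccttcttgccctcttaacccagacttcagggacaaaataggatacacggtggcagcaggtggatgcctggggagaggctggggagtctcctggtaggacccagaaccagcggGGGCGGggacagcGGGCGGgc
Rad51b: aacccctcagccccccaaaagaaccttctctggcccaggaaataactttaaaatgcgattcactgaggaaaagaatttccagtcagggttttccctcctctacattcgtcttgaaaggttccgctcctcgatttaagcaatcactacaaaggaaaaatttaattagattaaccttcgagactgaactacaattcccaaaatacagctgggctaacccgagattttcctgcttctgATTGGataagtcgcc
Myo15: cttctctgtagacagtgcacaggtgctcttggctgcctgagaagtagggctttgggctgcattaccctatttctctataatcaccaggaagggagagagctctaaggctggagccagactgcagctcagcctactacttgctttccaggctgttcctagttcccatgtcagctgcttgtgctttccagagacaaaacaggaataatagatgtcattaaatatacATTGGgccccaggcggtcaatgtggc

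The Chrna4 window belongs to a RefSeq start 4369 bases inside the deposited gene, counted from its deposited start at 180685339, while the RefSeq starts of the other 3 genes are the deposited starts. GGGCGG or its reverse complement occurred 3 times before the start of Chrna4, from positions -173, -89 and -51. It occurred in Moxd1 from -21 and -8, and once more from position 13 after the start. CCAAT occurred in Moxd1 from -243, and its reverse complement in Rad51b from -15 and in Myo15 from -26. In windows of 300 bases (250 before and 50 after the start), GGGCGG is held by 35.88% and CCAAT by 37.36% of 32544 promoters, so both are common letters. None of the 4 windows held TCACNCCAC, a form of the sterol regulatory element that 1.24% of promoters hold, nor CACGTG (7.17%), nor direct repeats of AGGTCA with 4 bases (0.02%) or 1 base (0.04%) between them, all searched on both strands. No matches overlapped. Rad51b has another RefSeq start 69 bases downstream, whose window overlaps the printed one. The Chrna4 window was richest in G and C (74.3%, against a median of 53.0% over all promoters), followed by Moxd1 (61.7%), Myo15 (51.0%) and Rad51b (45.0%).

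Between 19892025 and 28936707 reads per mouse were assigned to genes, with a median of 23332100. Values are normalized counts, in which each mouse's reads were divided by a size factor, and the floor used below is 3 reads in a mouse. Klrk1 checked the genotype labels: it stood at 20.1 to 71.1 in WT mice and at 0.966 to 8.71 in Klrk1-/- mice, without overlap on either diet (limma log2 fold change -2.40 on NCD, standard error 0.46, adjusted p = 0.00724, and -3.90 on SSD, standard error 0.41, adjusted p = 0.00165). Hepatocyte markers were the highest of 12 marker lists in every group. No pair of mice in a group agreed within sampling noise, and SSD-fed WT mouse 1 stood apart from its group. Its chi-square per gene against the other 4 was 69.3 to 95.4, where those 4 differed among themselves by 17.4 to 33.3, and its stellate cell markers summed to 25530, against 5435 to 10660. The diet differences in WT mice are therefore given with this mouse and, for the 4 genes and for calls that changed, also without it. In whole tissue, fewer cells of a type and less RNA per cell cannot be told apart.

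Marker lists of several cell types moved with the diet. Hepatocyte markers summed to 2140000 to 2870000 normalized counts in the 8 NCD-fed mice and to 1440000 to 2120000 in the 8 SSD-fed mice, without overlap. In WT mice the sums were higher on SSD without overlap for Kupffer cells and macrophages (2650 to 2840 on NCD, 3320 to 6500 on SSD), T and NK cells (45.8 to 70.6, and 74.2 to 133) and adipocytes (156 to 234, and 381 to 1550, with Adipoq, Plin1 and Lep at the floor in all mice). In Klrk1-/- mice these 3 lists overlapped between diets, while stellate cell markers did not (4700 to 6350 on NCD, 6890 to 8360 on SSD). Nor did the low sums of adrenal and kidney markers (17.42 to 34.47 on NCD, 34.77 to 39.35 on SSD). Of these markers, Cyp11b1, Umod, Slc34a1 and Aqp2 were at the floor in all mice. Their part in the diet differences below was not tested.

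The diet groups of WT mice did not overlap for 3 of the 4 genes, where 29.0% of 13091 genes did not overlap. Among Klrk1-/- mice they did not overlap for any of the 4, where 37.6% of 12904 genes did not. On NCD the genotypes did not overlap for 2 (19.3% of genes) and on SSD for 1 (17.9%). The genes were chosen on these groups, so nothing is read from the counts. Over all 16 mice 2 of the 4, Chrna4 and Rad51b, did not overlap between diets (11.0% of 13068 genes). Myo15 did not reach the filter of a mean of at least 10 in WT mice or between genotypes on NCD, and neither Chrna4 nor Moxd1 did between genotypes on SSD. The others passed through the group in which they were high. The comparisons of genotype share their mice with those of diet.

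Chrna4 had the widest gap between diets among the 13068 genes with a mean of at least 10. In NCD-fed WT mice its normalized counts were 207, 831, 1603 and 524. In the 5 SSD-fed WT mice they were 0.664, 3.38, 1.90, 3.55 and 0. The diets did not overlap, and 3 of the 5 SSD-fed mice were at the floor. In Klrk1-/- mice the values were 1819, 2235, 3972 and 1311 on NCD and 0, 3.21 and 1.71 on SSD. Again no value of one diet came near the other, and 2 of 3 SSD-fed mice were at the floor. All 8 SSD-fed mice together held 17 reads of Chrna4, against 10341 in the 8 NCD-fed mice.

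The mean went from 791 ± 598 (SD, n = 4) to 1.90 ± 1.59 (n = 5) in WT mice, a ratio of 416 (274 without NCD-fed mouse 3). It went from 2334 ± 1155 (n = 4) to 1.64 ± 1.61 (n = 3) in Klrk1-/- mice, a ratio of 1420 (2720 without SSD-fed mouse 2). As a difference of mean log2(normalized count + 1), which is damped by the added 1 at such low levels, this was -7.95 in WT and -9.90 in Klrk1-/- mice, the largest fall among 13091 and 12904 genes. The lowest NCD-fed mouse stood 58.4-fold above the highest SSD-fed mouse over both genotypes, the widest such gap of 13068 genes with a mean of at least 10. Only 6 genes (0.0459%) had a gap of 10-fold or more in this direction, and the next was Sqle (53.1-fold), which encodes a rate-limiting enzyme of cholesterol synthesis. Mvd, Fdps and Nsdhl, also of that pathway, and Dct made up the rest, at 13.2-fold to 10.3-fold. Without SSD-fed WT mouse 1 the log2 difference of Chrna4 in WT mice was -7.81.

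**Figure D1:**
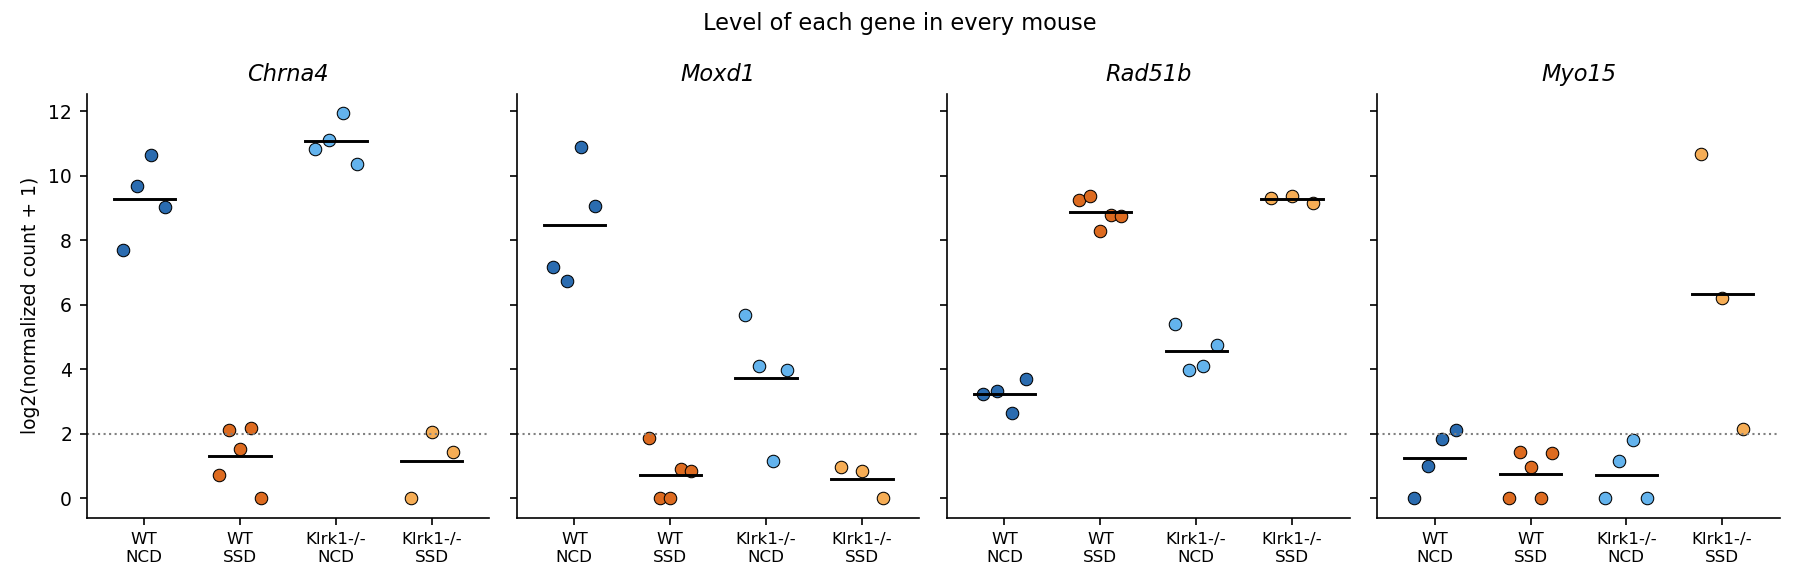
Level of the 4 genes in every mouse as log2(normalized count + 1), with 1 point per mouse and a bar at the mean of each group; the dotted line marks a normalized count of 3. Chrna4 sat high on NCD in both genotypes and Moxd1 in WT mice, Rad51b sat high on SSD, and Myo15 was above the line in 2 mice by a wide margin.

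On chow, Chrna4 reached a median of 412 normalized counts per kb of exon in WT mice, above 78.6% of the 18771 genes with any read. In Klrk1-/- mice the median was 1231 per kb, above 91.0%. On SSD the medians were 1.16 and 1.04 per kb, the latter above 22.3% of genes. Levels on chow were not tight: the highest NCD-fed WT mouse was 7.73-fold above the lowest, and the SD of the log2 values, 1.24, ranked 30 of 12817 genes against a median SD of 0.19. In NCD-fed Klrk1-/- mice the span was 3.03-fold. The Klrk1-/- mean was 2.95-fold above the WT mean on NCD (4.48-fold without WT mouse 3), but the groups overlapped, since the highest WT mouse (1603) exceeded the lowest Klrk1-/- mouse (1311).

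Of the 15 other nicotinic subunits, 3 passed the filter of a mean of at least 10, and none of these 3 was called lower on SSD. Chrne, the epsilon subunit, did not pass it, with 67 reads in all. Its means were 5.50 and 0.826 in WT mice on NCD and SSD and 12.02 and 1.18 in Klrk1-/- mice, lower on SSD and highest in chow-fed Klrk1-/- mice, as for Chrna4. Chrnb2, the usual partner in brain, had means of 38.0 ± 6.72 and 32.7 ± 12.1 in WT mice on NCD and SSD, and of 25.8 ± 8.29 and 35.3 ± 6.85 in Klrk1-/- mice. Its diet difference in WT mice was -0.29 on the log2 scale (limma, standard error 0.31, adjusted p = 0.496). Chrna2, another alpha subunit, rose on SSD in both genotypes, from 57.9 to 162 in WT mice (log2 fold change 1.52, standard error 0.26, adjusted p = 0.00112) and from 39.97 to 117 in Klrk1-/- mice (1.58, standard error 0.29, adjusted p = 0.00175). Chrnb1, the muscle beta subunit, rose in WT mice (1.07, adjusted p = 0.0277), a call lost under 7 of 17 alternative settings, among them leaving out SSD-fed WT mouse 1 (0.92, adjusted p = 0.0484). In Klrk1-/- mice its difference was 0.43 (adjusted p = 0.426). Called here means an adjusted p under 0.05 by limma with Benjamini-Hochberg adjustment over all genes tested, and a log2 fold change beyond 1. By that rule 9.01% of genes were called for diet in WT mice and 5.46% in Klrk1-/- mice, 1.7% and 1.15% between genotypes on NCD and SSD, and 0.536% for the diet by genotype interaction. Over the 3 subunits the median difference (log2) was 1.07 in WT and 0.49 in Klrk1-/- mice, with the median of all genes close to 0 in both.

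Chat, which makes acetylcholine, and Slc18a3 and Slc5a7, which carry acetylcholine and choline, had no read in any of the 16 mice. Bche, a secreted cholinesterase of liver, had a mean of 1722. Of the 10 listed cholinergic partners, limma called 0 for diet in either genotype, with 1 of 3 tested at an unadjusted p under 0.05 in WT and 2 of 4 in Klrk1-/- mice. edgeR called 1 of them higher on SSD in Klrk1-/- mice, and DESeq2 called 0 in both. Neuron and nerve markers were low throughout, from 0 to 14.2 summed normalized counts in a mouse, with Snap25, Th and Nefl at the floor in all mice.

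Moxd1 switched with diet in WT mice and was already low in chow-fed Klrk1-/- mice. In NCD-fed WT mice its normalized counts were 144, 106, 1916 and 539. In SSD-fed WT mice they were 2.66, 0, 0, 0.888 and 0.816. The diets did not overlap, and 6 reads in all were counted in the 5 SSD-fed mice. Chow-fed Klrk1-/- mice had 50.5, 16.2, 1.24 and 14.8, and SSD-fed ones 0.966, 0.803 and 0. Here the lowest chow-fed mouse held 1 read, as did 2 of the 3 SSD-fed mice, so that the absence of overlap in this genotype rests on size factors and not on reads. A switch was thus seen in 4 chow-fed WT mice and, at a far lower level, in 3 of 4 chow-fed Klrk1-/- mice.

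In WT mice the mean went from 676 ± 850 (SD, n = 4) to 0.872 ± 1.09 (n = 5). This was a log2 difference of -7.74, the second largest fall after Chrna4 (-8.03 without SSD-fed WT mouse 1). Leaving out any 1 mouse gave log2 differences from -8.32 to -6.93. In Klrk1-/- mice the means were 20.7 ± 21.0 (n = 4) and 0.590 ± 0.517 (n = 3). The log2 difference of -3.13 shrank to -1.28 with 10 added in place of 1, and ran from -3.98 to -2.47 without 1 mouse. On NCD the Klrk1-/- mean was 32.7-fold below the WT mean, but 12.7-fold without WT mouse 3 and 63-fold without Klrk1-/- mouse 1. The lowest WT mouse stood 2.09-fold above the highest Klrk1-/- mouse, and the log2 difference of -4.74 was the largest fall among 12845 genes. On SSD both genotypes were at the floor, apart from 1 WT mouse with 4 reads, and no fold is given.

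Moxd1 also varied widely among chow-fed mice. Mouse 3 stood 18.1-fold above mouse 2, and the log2 SD of 1.91 ranked 6 of 12817 genes. In NCD-fed Klrk1-/- mice the log2 SD of 1.88 ranked 12 of 12844. WT mouse 3 was the highest of its group for both Chrna4 (1603) and Moxd1 (1916). Klrk1-/- mouse 3, in contrast, was the highest of its group for Chrna4 (3972) and the lowest for Moxd1 (1.24). The median level of Moxd1 in chow-fed WT mice was 194 normalized counts per kb, above 66.7% of genes with a read, and in chow-fed Klrk1-/- mice 8.79 per kb, above 34.9%.

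Cholangiocyte markers, summed, were 1080 to 2870 in chow-fed WT mice and 898 to 1220 in chow-fed Klrk1-/- mice, with all 5 markers above the floor. They were 896 to 2990 in SSD-fed WT mice, in which Moxd1 was at or near 0. Their part in the genotype difference of Moxd1 was not tested.

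Other copper monooxygenases and copper handling genes were not called. Dbh had 1 read and Moxd2 none over the 16 mice. Pam, which amidates peptide hormones, had means of 413 on NCD and 761 on SSD in WT mice and was not called. Of the 8 genes tested of 10 listed, limma, edgeR and DESeq2 each called 0 for diet in either genotype, with 5 at an unadjusted p under 0.05 in WT and 2 in Klrk1-/- mice by limma. Cp, the copper carrier ceruloplasmin, was the highest of the list at a mean of 29940.

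Rad51b ran the other way. In NCD-fed WT mice its normalized counts were 8.44, 9.06, 5.21 and 12.1. In SSD-fed WT mice they were 602.5, 660, 311, 436 and 435. No WT mouse lay between 12.1 and 311. The Klrk1-/- mice had 41.4, 14.9, 16.2 and 25.8 on NCD and 638, 660 and 568.3 on SSD, again far apart. The low state was not at the floor: every chow-fed mouse had between 4 and 36 reads, 113 in all, against 5185 in the 8 SSD-fed mice.

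The mean went from 8.71 ± 2.84 (SD, n = 4) to 489 ± 141 (n = 5) in WT mice, a ratio of 56.1, and from 24.6 ± 12.2 (n = 4) to 622 ± 48.0 (n = 3) in Klrk1-/- mice, a ratio of 25.3. The log2 differences of 5.66 and 4.72 ranked 4 of 13091 and 5 of 12904 genes among rises, and the first was 5.57 without SSD-fed WT mouse 1. Over both genotypes the lowest SSD-fed mouse stood 7.52-fold above the highest NCD-fed mouse, the second widest gap in this direction among 13068 genes. Fgf21, a hormone released by stressed liver, came first at 17.3-fold and was the only gene past 10-fold (0.00765%). Psat1 and Aldh1l2, of serine and folate metabolism, followed at 7.17-fold and 5.79-fold.

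**Figure D2:**
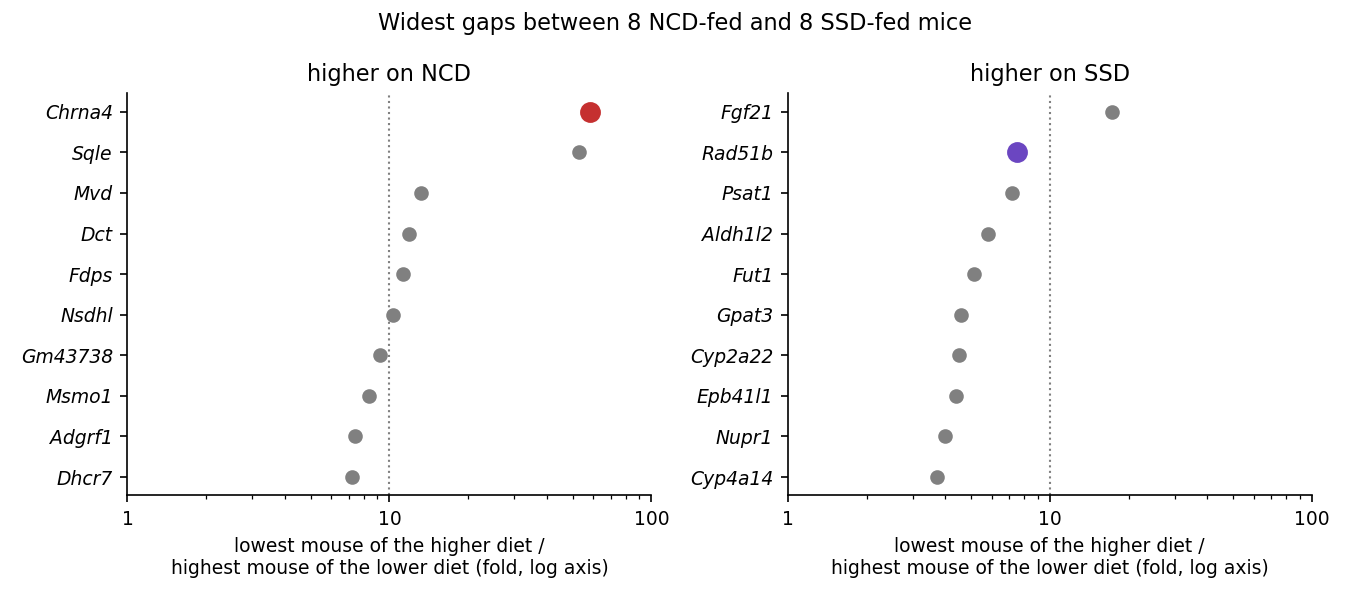
The 10 widest gaps between 8 NCD-fed and 8 SSD-fed mice in each direction, as the lowest mouse of the higher diet over the highest mouse of the lower diet, on a log axis; the dotted line marks 10-fold. Chrna4 led the genes higher on NCD at 58.4-fold, and Rad51b was second to Fgf21 among genes higher on SSD at 7.52-fold. Gaps were ranked over 13068 genes with a mean of at least 10.

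On SSD the highest mouse was 2.12-fold above the lowest in WT and 1.16-fold in Klrk1-/- mice. The log2 SD of Rad51b was 0.43 in WT mice, above the median of 0.19 over all genes, and 0.11 in Klrk1-/- mice, under the median of 0.14. The medians were 282 and 413 normalized counts per kb, above 73.0% and 79.0% of genes with a read. On chow the Klrk1-/- mean was 2.82-fold above the WT mean, with the lowest Klrk1-/- mouse (14.9) just above the highest WT mouse (12.1). On SSD the genotypes overlapped, with a log2 difference of 0.39.

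Other genes of homologous recombination differed far less between diets. Of 17 listed genes 15 were tested for diet in WT mice, and 3 rose. Among these, Rad51ap1 went from 6.23 to 20.0 (log2 fold change 1.55, limma adjusted p = 0.00327), and Rad54b, a DNA translocase, from 15.02 to 39.2 (1.33, adjusted p = 0.00135). The calls of Rad51ap1 and Rad54b were lost with a pseudocount of 10. Limma, edgeR and DESeq2 called 0 of 13 for diet in Klrk1-/- mice, with 4 at an unadjusted p under 0.05 by limma. On SSD, Rad51ap1 was lower in Klrk1-/- than in WT mice (-3.26, standard error 0.48, adjusted p = 0.0108), with means of 1.501 and 20.0 normalized counts. So low a mean leaves the size of the difference loose: it ran from -3.78 with DESeq2 to -1.38 with a pseudocount of 10, and the gene was not tested with a minimum mean of 50. Rad51c, Rad51d and Xrcc2, whose proteins act in complexes with that of Rad51b, were not called, with group means of 22.4 to 45.0, 274 to 321 and 27.6 to 30.2. The median difference (log2) of the tested list was 0.21 in WT and 0.22 in Klrk1-/- mice.

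Myo15 was above the floor by a wide margin in 2 mice of 16, and its level in 1 of them far exceeded that in the other. In the 3 SSD-fed Klrk1-/- mice its normalized counts were 1631, 73.1 and 3.43, the last resting on 4 reads. In the other groups they were 0, 1.01, 2.61 and 3.31 on NCD and 0, 1.69, 0.952, 0 and 1.63 on SSD in WT mice, and 0, 1.24, 2.49 and 0 on NCD in Klrk1-/- mice. All 13 of those mice were at the floor. The first Klrk1-/- mouse on SSD stood 22.3-fold above the second, and the second 21.3-fold above the third. The 14 mice other than these 2 held 18 reads together, against 1689 in the first mouse alone.

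Myo15 was the only gene of the table with at least 100 normalized counts in 1 mouse and at least 10-fold more than in every other mouse. Its log2 SD of 4.26 within SSD-fed Klrk1-/- mice was the largest of 12910 genes. The group mean was 569 ± 920 (SD, n = 3). The log2 difference between diets in Klrk1-/- mice was 5.601 and ranked first among rises, but was 3.44 without the first mouse, 7.70 without the third and 3.49 with 10 added in place of 1. The log2 difference from SSD-fed WT mice was 5.59, but 3.42 without the first Klrk1-/- mouse, 7.68 without the third and 3.498 with 10 added. In WT mice both diets were at the floor, and no fold is given.

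In that first mouse the gene's upstream neighbour was low. Drg2, which encodes a GTP-binding protein, ends 584 bases before Myo15 on the same strand, and a Drg2 transcript of a newer GENCODE annotation runs into Myo15. Its normalized count was 614 in the first SSD-fed Klrk1-/- mouse, the lowest of 16 mice, and 1052 and 913 in the others of that group. Over the other groups Drg2 ran from 836 to 1372. Drg2 was looked at in each mouse after its value had been seen. The next gene downstream, Alkbh5, an RNA demethylase, ran from 1170 to 1485 in the 3 mice and from 976 to 1452 elsewhere. Of the 12 marker lists, 2 put this mouse below the other 7 SSD-fed mice, with 2943 summed normalized counts for sinusoidal endothelium (3152 to 3913 in the others) and 242 for adipocytes (285 to 1549). Its sums for the other 10 lists lay within the range of those mice. Their part in the level of Myo15 was not tested.

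Other unconventional myosins were also expressed in liver. Of 24 listed, 16 were tested. In WT mice 3 rose on SSD: Myo1f, a myosin of leukocytes, from 67.1 to 181 (log2 fold change 1.33, adjusted p = 0.00397), Myo9a from 92.1 to 211 (1.16, adjusted p = 0.00118) and Myo5a from 18.6 to 40.7 (1.07, adjusted p = 0.0498). Kupffer cell and T and NK cell markers were also higher in these SSD-fed mice (3320 to 6500 and 74.2 to 133 summed, against 2650 to 2840 and 45.8 to 70.6 on NCD), and their part in the rise of Myo1f was not tested. Myo1f was highest in SSD-fed mouse 1, without which its log2 fold change was 1.07 (limma adjusted p = 0.000713). Myo5a lost its call under 11 of its alternative settings, among them leaving out that mouse (0.80, adjusted p = 0.0841). Among Klrk1-/- mice limma, edgeR and DESeq2 called 0 of 16, with 8 at an unadjusted p under 0.05 by limma. Myo6 and Myo7a, which like myosin 15 serve hair cells, had means of 1233 and 599.5. Of the 4 listed partners of Myo15, Eps8 rose in WT mice (1.03, adjusted p = 0.00393, lost under 5 of 17 alternatives, with 0.90 and an adjusted p of 0.00505 without SSD-fed mouse 1), while Whrn had group means of 24.7 to 36.0 and was not called.

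**Figure D3:**
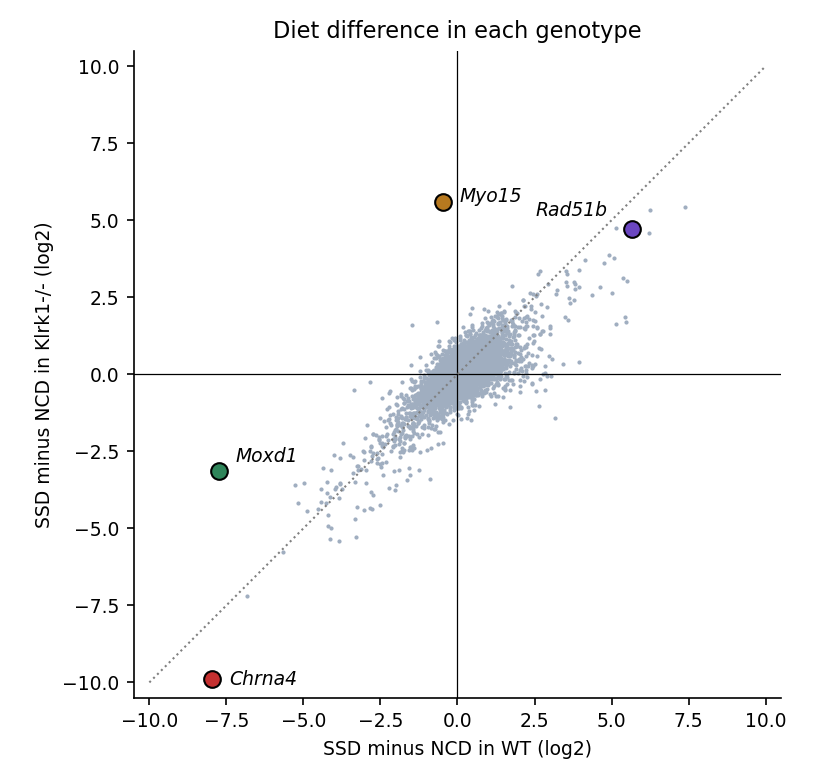
Difference of mean log2(normalized count + 1) between SSD and NCD in WT mice (horizontal) and in Klrk1-/- mice (vertical), for 12767 genes tested in both (grey) and the 4 named genes (coloured); the dotted line marks equal differences. Chrna4 lies at -7.95 and -9.90 and Rad51b at 5.66 and 4.72, near the line, while Moxd1 (-7.74 and -3.13) and Myo15 (-0.48 and 5.601) lie away from it.

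Genes with the most similar profiles were found by the root-mean-square distance between standardised log2 values over the 16 mice, on which 0 is identity. For Chrna4 the 5 nearest were Rdh11 and Nsdhl (both 0.163), Acss2 (0.17), Pdzk1ip1 (0.193) and Lss (0.198). Nsdhl and Lss encode enzymes of cholesterol synthesis, and Acss2 makes acetyl-CoA from acetate. Nsdhl, for example, went from 3023 to 208 in WT mice and from 3664 to 225 in Klrk1-/- mice. These genes were picked for their likeness to Chrna4, so their direction is no separate support. Of 12 listed sterol genes limma called 12 lower on SSD in WT mice and 11 in Klrk1-/- mice, and the medians of their differences (log2) were -2.53 and -2.21. The list was chosen with earlier results of these data known and holds Lss, so it is no separate support either. It also holds Sqle, whose difference of -6.83 and -7.19 was closest in size to that of Chrna4.

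No gene was as close to Moxd1. Its 5 nearest were Aadat (0.367), Meis1, Gtf2h3, Tff3 and Pik3r3 (0.415). Tff3, a trefoil factor of secreting epithelia, was closest to it in size: its means were 555 and 24.6 in WT mice on NCD and SSD and 137 and 16.9 in Klrk1-/- mice. Tff3 fell with diet in both genotypes (log2 fold change -4.37, standard error 0.59, adjusted p = 0.000214 in WT, and -3.03, standard error 0.30, adjusted p = 2.23e-05 in Klrk1-/- mice) and was lower in chow-fed Klrk1-/- than WT mice (-1.64, standard error 0.43, adjusted p = 0.0282). Aadat, an enzyme of tryptophan and lysine breakdown, had means of 3152 and 1470 in WT and 2145 and 1554 in Klrk1-/- mice. These genes were picked for their likeness to Moxd1, so their direction is no separate support.

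For Rad51b the nearest were Pla2g12a (0.225), 4930523C07Rik, Fgf21 (0.239), Abcg8 (0.239) and Mthfd1l (0.252). Fgf21 had means of 9.07 and 1589 in WT mice on NCD and SSD and of 27.0 and 1019 in Klrk1-/- mice. Abcg8, which exports sterols into bile, went from 1107 to 5761 in WT and from 1670 to 7239 in Klrk1-/- mice. Mthfd1l, of mitochondrial folate metabolism, went from 13.1 to 77.2 and from 13.8 to 84.7. For Myo15 even the nearest gene, Notum (0.625), was far away, followed by Id2 (0.669) and Cep68 (0.733). Notum and Id2 were higher in SSD-fed Klrk1-/- mice as a group, with means of 1816 and 4205 against 936 to 1074 and 1913 to 2035 in the other groups. The genes near Rad51b and Myo15 were picked for their likeness to them, so their direction is no separate support.

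**Figure D4:**
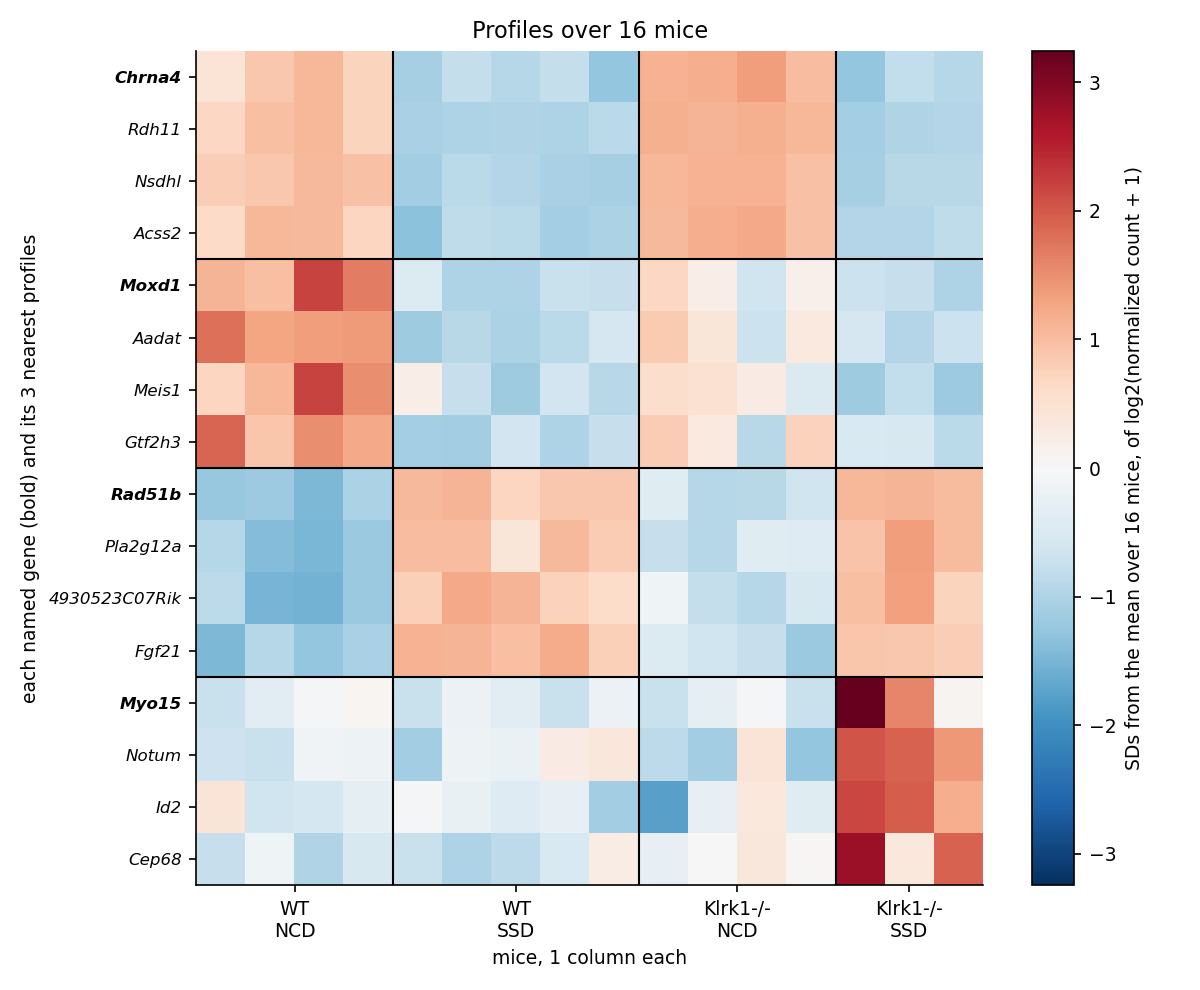
Standardised log2(normalized count + 1) of each named gene (bold) and its 3 nearest genes over 16 mice, 1 column per mouse and 4 blocks of groups; red is above and blue below the gene's mean, in SDs. The block of Chrna4 is red in the 8 NCD-fed mice and that of Rad51b in the 8 SSD-fed mice, that of Moxd1 is reddest in the 4 NCD-fed WT mice, and Myo15 is red in 2 SSD-fed Klrk1-/- mice.

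Among the 4 genes, Chrna4 and Moxd1 were 0.772 apart. Chrna4 and Rad51b were 1.964 apart but 0.38 once 1 profile was turned over, near mirror images over diet. Moxd1 and the turned Rad51b were 0.558 apart. The genes were picked for their levels over the diets, so these distances follow from the choice and are no separate result. Within groups, after the mean of each group was taken out, the nearest genes were others: Bcl6b for Chrna4 (0.159) and Clec4a2 for Moxd1 (0.267) over the 8 NCD-fed mice, and Cisd1 for Rad51b (0.244) and Alg9 for Myo15 (0.304) over the 8 SSD-fed mice. No sterol gene was among the 5 nearest to Chrna4 by this measure. So few places among all genes ranked would rarely hold a gene of a short list, so nothing is read from this.

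Of 88 genes within 500 kb, 56 were tested for diet in WT mice, and 1 rose and 4 fell by limma (8.93%, against 9.01% of all genes). Of 57 tested in Klrk1-/- mice, again 1 rose and 4 fell (8.77%, against 5.46% of all genes). Near Chrna4, Col20a1, a collagen gene whose end lies 16 bases from that of Chrna4 on the other strand, fell from 107 to 27.2 in WT mice (log2 fold change -1.91, standard error 0.23, adjusted p = 0.000101) and from 125 to 25.1 in Klrk1-/- mice (-2.25, standard error 0.19, adjusted p = 6.22e-06). Whether reads were counted by strand is not given in the sources used here. Ptk6, a tyrosine kinase 150174 bases away, fell from 44.0 to 3.43 and from 42.4 to 4.05 (-3.38 and -3.19). Srms, a related kinase beside it, fell by 2.22 on the log2 scale in WT mice and by 1.06 in Klrk1-/- mice (adjusted p = 0.0485, lost under 10 of 15 alternatives).

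Near Moxd1, Vnn1, a pantetheinase 318173 bases away, rose from 257 to 1879 in WT mice (2.89, standard error 0.23, adjusted p = 3.5e-06) and from 281 to 1303 in Klrk1-/- mice (2.20, standard error 0.13, adjusted p = 4.41e-07), opposite to Moxd1. The nearest gene, Stx7, a syntaxin 33294 bases away, had means of 461 and 377 on SSD in WT and Klrk1-/- mice and was not called. Near Rad51b, Rdh11, a retinol dehydrogenase, fell from 2069 to 459 and from 2523 to 451 (-2.16 and -2.48), opposite to Rad51b. It was also the gene nearest to Chrna4 in profile. Zfyve26, which starts 977 bases from Rad51b on the other strand, had log2 fold changes of -0.24 and -0.50 and was not called (adjusted p = 0.141 and 0.0127). Of the 18 tested genes near Myo15, limma, edgeR and DESeq2 each called 0 for diet in either genotype, with 8 and 9 at an unadjusted p under 0.05 by limma. Between genotypes, limma called 0 of the neighbours on NCD (23 of 56 at an unadjusted p under 0.05) and 0 on SSD (13 of 55). edgeR called 0 in both, and DESeq2 called 0 on NCD and 1 on SSD.

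**Figure D5:**
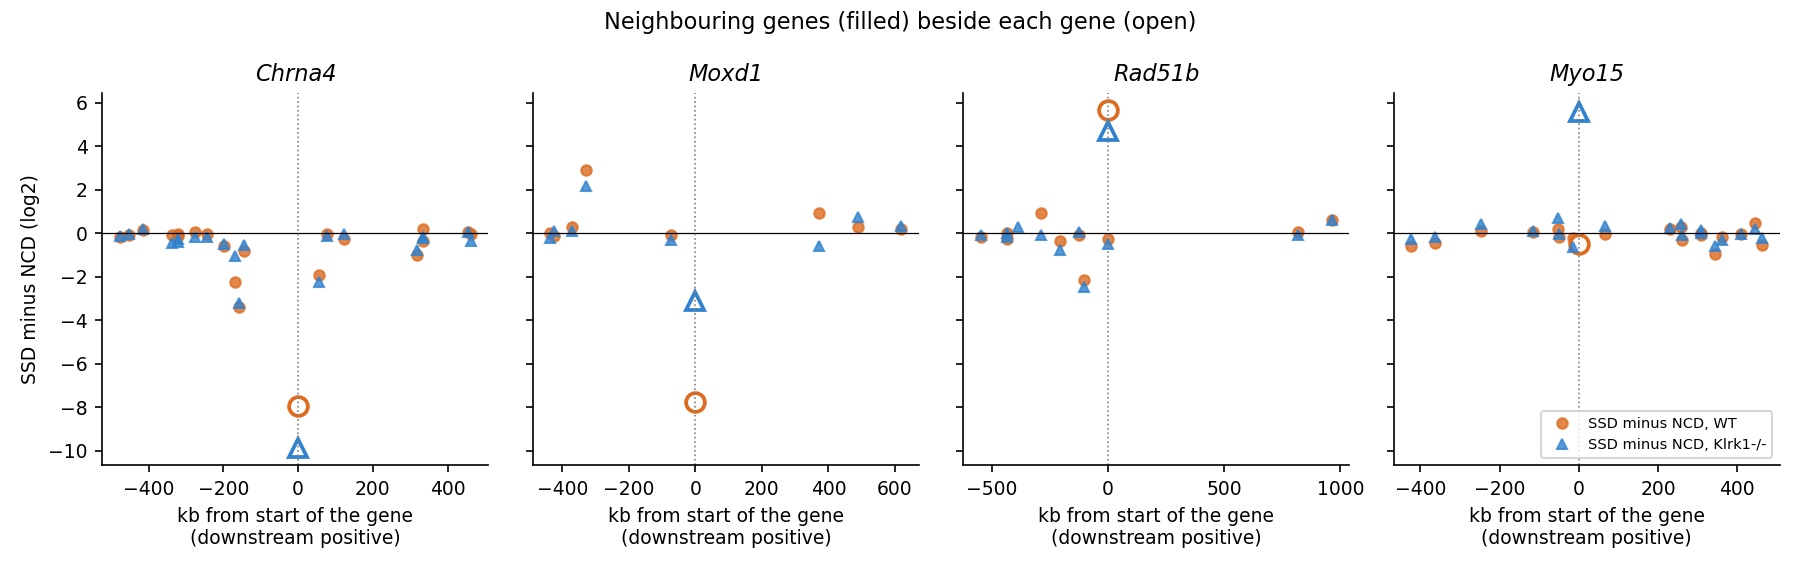
Difference of mean log2(normalized count + 1) between SSD and NCD for genes within 500 kb (filled) and for each named gene (open), by distance in kb between gene starts, in WT (circles) and Klrk1-/- mice (triangles). The named genes lie farthest from 0 at each locus, except that Myo15 in WT mice is at -0.48, beside its neighbours.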

How the data were processed

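RNA of whole liver was sequenced as single reads. Per the labels and methods, the authors checked reads with FastQC, mapped them to GRCm39 with STAR, counted them per gene with FeatureCounts on GENCODE, and computed fold changes with DESeq2. The methods give the version of the GENCODE annotation. Versions of FastQC, STAR, FeatureCounts and DESeq2 are not given in the sources used here, nor whether strand was used. The kit is named as mRNA in the labels and as total RNA in the methods. The deposited table holds normalized counts (a signal per gene, reads divided by a size factor for each mouse). Whole reads were recovered from the value of 1 read in each mouse for 100.0% of values (tolerance 0.1 read). The authors' table also gives the fraction (share) of G and C per gene, used as a label. Columns with the authors' fold changes and p-values were not used. Groups came from the sample titles.

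The 4 genes and all lists were chosen with earlier results of these data known, so the 4 genes were not tested. Other genes were tested with limma 3.58.1 (R 4.3.3) on log2(normalized count + 1), for genes whose mean reached 10 in the mice compared, with Benjamini-Hochberg adjustment over all genes. Called means an adjusted p under 0.05 and a fold beyond 2. Only the groups compared entered a fit, and the diet by genotype interaction used all 4. The methods' DESeq2 served as an alternative (1.42.0), with edgeR 4.0.16, both on recovered reads. The code was tested on simulated data. Genes with the most similar profiles were ranked by root-mean-square distance of standardised log2 values (5 per gene). Named are these, in each list the 4 called genes with the largest change and the 2 with the highest mean, the nicotinic subunits over the minimum and the nearest tested neighbours. Other genes named, such as list members not called and the widest gaps, were chosen after their values were seen. Mice are separate animals, and replicate numbers do not pair them across groups. Reads carry no molecular identifiers, so the floor of 3 reads covers counting error only. Some items are not reported here.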

Additional observations from a re-analysis of the deposited data

Results flagged for a closer look

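Among 57 genes named here and their 171 groups of 4 or 5 mice, 6 groups held 1 mouse far from the others by Dixon's criterion, where chance marks about 1 group in 20. In none of the 4 named genes did a mouse stand out by this criterion, and the group of 3 with Myo15 was too small for it. Chow-fed Klrk1-/- mouse 3 was far below its group for Chrna2 (19.9 normalized counts) and Clec4a2 (14.9), and mouse 2 for Myo9a (106). SSD-fed WT mouse 1, the library that stood apart from its group over all genes, was far above it for Mthfd1l (105), Myo1f (349) and Stx7 (589).

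The diet difference itself differed between genotypes at an adjusted p under 0.05, whatever the fold, for 2 of the 52 genes examined for it, both near Myo15 in profile. By the same measure 115 of all 13068 genes (0.88%) did. Id2 had an interaction of 1.24 on the log2 scale (limma, standard error 0.27, adjusted p = 0.034), with diet differences of -0.07 in WT and 1.17 in Klrk1-/- mice. Notum had an interaction of 0.88 (standard error 0.20, adjusted p = 0.0452), with 0.10 in WT and 0.98 in Klrk1-/- mice, and so did not pass the fold limit used for calls. Both were picked because their profile resembled that of Myo15, so this direction was fixed by the choice.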

How the results depend on the processing

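Without 1 mouse, the log2 difference between genotypes on SSD changed sign for Chrna4 (-0.60 to 0.44) and Moxd1 (-0.30 to 0.18), both near the floor. The other log2 differences of the 4 genes kept their direction under the alternatives run. Those of the 4 genes moved by more than the spread between mice only with a pseudocount of 10: Chrna4 to -5.74 in WT and -7.54 in Klrk1-/- mice, Moxd1 to -5.095 and -1.28, and Rad51b in WT mice to 4.70. Scaling all mice to the same total moved the median of all genes by 0.34 in WT and 0.25 in Klrk1-/- mice for diet, and Chrna4 and Rad51b in WT mice to -7.71 and 5.99.

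Counts of called genes depended more on settings. The replicate block also drops mice whose number is missing from a group compared, such as SSD-fed WT mice 4 and 5 between genotypes. For diet in WT mice 1179 genes (800 higher, 379 lower) became 749 with a minimum mean of 50, 1950 (1700 higher, 250 lower) at the same total and 2522 at a fold of 1.5. For diet in Klrk1-/- mice 704 became 469 and 1696 with the first and last. Between genotypes on NCD 219 became 744 at a fold of 1.5, and ranged from 132 (without chow-fed Klrk1-/- mouse 3) to 258 without 1 mouse. On SSD 151 became 96 with a pseudocount of 10, 85 with a minimum of 50, 365 with DESeq2, 332 with the replicate block and 279 at a fold of 1.5. It ranged from 35 (without Klrk1-/- mouse 1; 57 without 2, 43 without 3) to 251 (without WT mouse 5; 76, 82 and 98 without WT mice 2, 3 and 4). The interaction went from 70 to 196 with DESeq2, 45 with the block and 111 at a fold of 1.5, and ranged from 28 to 130 without 1 mouse (45 and 43 without WT NCD mouse 1 and SSD mouse 4, 130 without SSD mouse 5; 43 and 46 without Klrk1-/- NCD mice 1 and 2, 31 and 28 without SSD mice 1 and 3).

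Listed genes called for diet in WT mice (9, sterol genes aside) became 4 with a pseudocount of 10, 3 with a minimum of 50 and 14 at the same total. In Klrk1-/- mice 1 became 2 with no minimum or with edgeR and 3 at the same total. Between genotypes on SSD 1 became 3 with no minimum, 0 with a minimum of 50, 2 at the same total, 4 with DESeq2 and 4 with the replicate block, and 1 to 2 without 1 mouse (2 without WT mouse 1 or 5). For the interaction 0 became 1 with no minimum, and 0 to 1 without 1 mouse (1 without SSD-fed WT mouse 5). Neighbours called for diet (5 in each genotype) became 3 with a minimum of 50 in each, and ranged from 5 to 8 in WT mice without 1 mouse (8 without NCD mouse 3 or SSD mouse 5). Between genotypes 0 became 1 on NCD with no minimum or the replicate block, and 1 with DESeq2 on SSD and for the interaction. Same-numbered mice are different animals whose deviations correlated at -0.133 to 0.246, so the block pairs nothing. The best match was the own number for 0 of 4, 2 of 3, 1 of 3 and 2 of 3 numbers. Of single genes called, 715 values kept their call under alternatives and 48 lost it, with none reversed. At the floor, depth limits any difference for Chrna4 and Moxd1 on SSD and for Myo15 outside 2 mice. The cause of these changes was not tested.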
